A study of Homo sapiens with 75 samples.

Results

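Transcripts of 32 genes of B cell receptor signalling were followed in 5 mantle cell lymphoma lines exposed to the CD20 antibodies GA101 and rituximab. The 32 genes were listed by symbol, and every probe set that the array platform's annotation gives to 1 of these symbols alone was used. 31 of the 32 had such a probe set, 87 in all of 54675 on the array, and PIK3AP1 was not analysed here. 78 of the 87 probe sets passed the filter on low intensity, at least 1 for each of the 31 genes, and 21 genes had several. Each gene was represented by its brightest probe set among 12520 genes tested.

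The B cell receptor is a surface immunoglobulin bound to CD79A and CD79B, whose tails are phosphorylated by Src family kinases and then recruit the kinase SYK. SYK and BTK, held together by the adaptor BLNK, activate phospholipase C gamma, which releases calcium for NFAT and diacylglycerol for protein kinase C and NF-kB, while PI3K opens the AKT branch. Inhibitory co-receptors such as CD22 and CD72 bring in the phosphatases PTPN6 and INPP5D, which shorten the signal. Mantle cell lymphoma is a B cell cancer with high cyclin D1, and its cells commonly depend on signalling through this receptor.

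The lines are REC-1, JEKO-1, HBL-2, Z138 and GRANTA-519, each an established culture. GA101 (obinutuzumab) is a glycoengineered type II antibody to CD20 and rituximab is a chimeric type I antibody to the same protein. Each line received GA101, rituximab, both together, an isotype control or PBS, with 3 arrays for each of the 25 groups and 75 arrays in all. Each antibody was given at 10 µg/ml, alone or in the pair, and neither the isotype's concentration nor the length of treatment is given in the sources used here. No label says whether replicates came from separate cultures, so p-values measure the spread between these arrays, which may be technical. In a culture, a lower level can mean fewer cells with the transcript or less of it in each cell, and the 2 cannot be told apart.

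Intensity is the brightness of a probe set on a linear scale, and changes are differences of log2 intensity with their standard error. The median intensity of an array was 11.06 to 17.42, replicates correlated at 0.933 to 0.954 and no 2 arrays were identical. MS4A1, the gene of CD20, stood at 4286 to 6393 in the control arrays of the 5 lines. Over all lines it changed against isotype by 0.03 with GA101, not called, and by 0.07 with rituximab and with both (limma adjusted p = 0.017 and 0.025). No all-line change against PBS was called. The lines were not alike. In HBL-2 its mean was 4223 with isotype, 4349 with PBS, 4790 with GA101, 5287 with rituximab and 5402 with both. In GRANTA-519 it was 6492 with isotype, 6294 with PBS and 6007 with rituximab. All 9 B cell markers checked were above the filter in at least 1 line and 7 of them in all 5. Of 7 T cell, 5 NK cell and 5 myeloid markers, 4, 1 and 3 were above it in at least 1 line and none in all 5. Of 5 plasma cell, 7 epithelial and fibroblast and 3 erythroid markers, 3 (PRDM1, XBP1 and IRF4), 2 (COL1A1 and DCN) and 1 (HBB) were above it in all 5. Of the mantle cell lymphoma markers, CCND1 stood at 1240 to 5975 and SOX11 at 117 to 732, above it in all 5 lines, and CD5 was above it in none.

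The receptor genes were present at very different levels before any CD20 antibody was given. Over the 6 control arrays of each line (3 isotype, 3 PBS), all 31 genes differed between lines by a moderated F test (limma, Benjamini-Hochberg over all genes), as did 92.7% of all genes tested. The median distance between the highest and the lowest line was 1.70 on the log2 scale for the 31 genes and 1.26 for all genes. Z138 had the lowest mean for 19 of the 31 genes and REC-1 the highest for 9, and the neighbouring line in the order differed from it for 15 and 7 of these. The same counts over all genes are not given here, so the order is not shown to be particular to the receptor genes. 29 of the 31 were above the filter in all 5 lines. The other two, CR2 and RASGRP3, passed it only through the lines in which they are high.

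**Figure D1:**
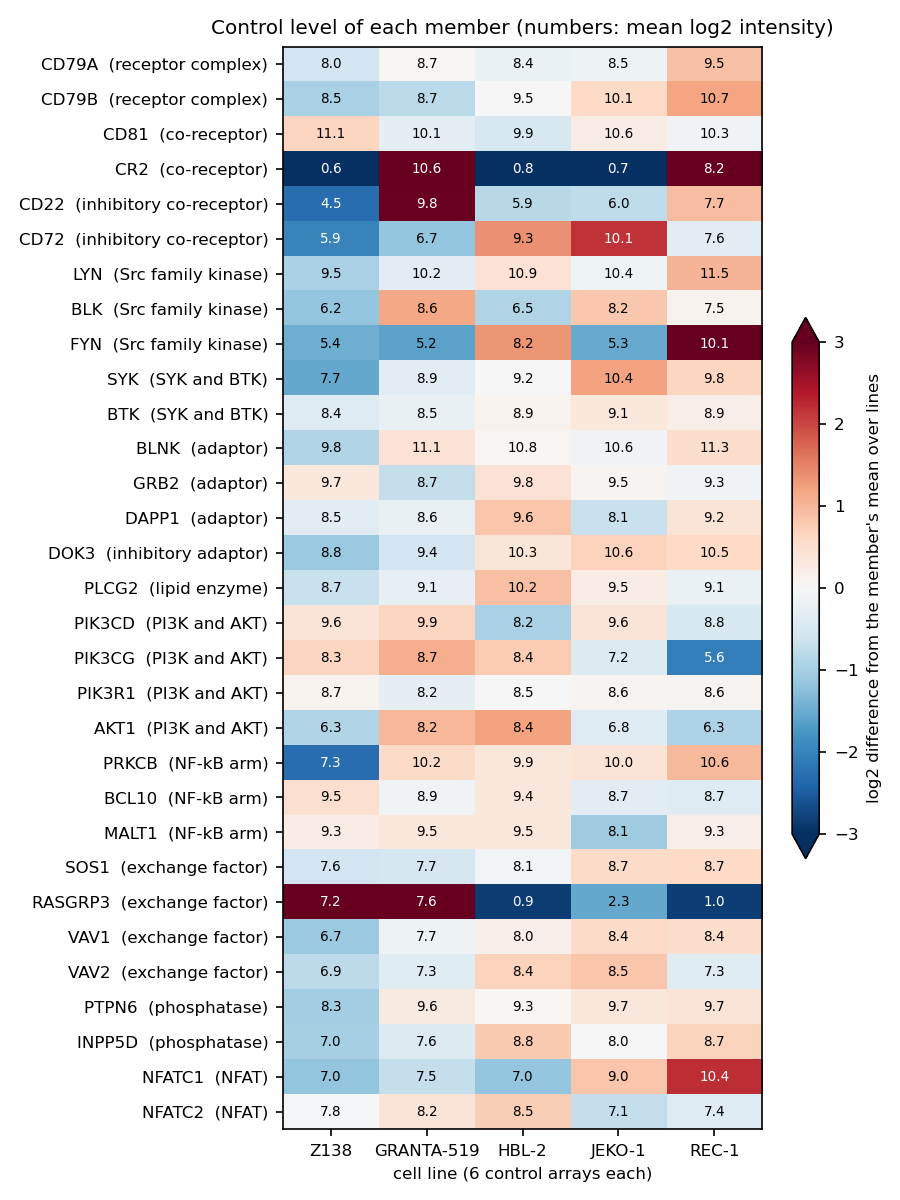
Mean log2 intensity of each of the 31 genes (rows, with role) over the 6 control arrays of each line (columns), printed in the cell and coloured by its difference from the gene's mean over lines, with colours capped at 3 units. Z138 has the lowest mean for 19 genes, 15 of them differing from the next line, while CR2, RASGRP3, CD22 and FYN show the widest ranges. Counts over all genes are not given.

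CR2, a complement receptor of B cells, averaged 1584 ± 100 (SD, n = 6) in GRANTA-519 and 294 ± 20.3 in REC-1. In HBL-2, JEKO-1 and Z138 it averaged 1.68, 1.72 and 1.43, levels that did not differ from each other. RASGRP3, a Ras exchange factor that answers diacylglycerol, averaged 191 ± 20.7 in GRANTA-519 and 153 ± 18.2 in Z138, which did not differ, and 6.29, 2.33 and 2.33 in JEKO-1, REC-1 and HBL-2. CR2 and RASGRP3 were thus measured in 2 lines each, and values in the remaining lines are near the floor of 1.

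CD22, the inhibitory lectin that recruits PTPN6, averaged 865 ± 45.2 in GRANTA-519, 209 ± 18.2 in REC-1, 65.8 in JEKO-1, 63.2 in HBL-2 and 23.1 ± 5.19 in Z138, with JEKO-1 and HBL-2 not different. The Src family kinase FYN averaged 1075 ± 55.6 in REC-1 and 295 ± 71.1 in HBL-2, against 41.8 in Z138, 40.9 in JEKO-1 and 38.4 in GRANTA-519, which formed a level group. CD72, a second inhibitory receptor, was ordered without ties: 1075 ± 88.0 in JEKO-1, 620 in HBL-2, 193 in REC-1, 106 in GRANTA-519 and 60.5 in Z138. NFATC1, a calcium-regulated transcription factor, averaged 1357 ± 70.3 in REC-1 and 527 ± 96.6 in JEKO-1, with 178 in GRANTA-519 and a tied pair of 131 in HBL-2 and 130 in Z138.

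At the other end, PIK3R1, the regulatory subunit of PI3K, ranged only from 304 ± 26.8 in GRANTA-519 to 402 ± 22.1 in Z138. BTK ranged from 332 ± 36.9 in Z138 to 535 ± 59.4 in JEKO-1, and the NF-kB adaptor BCL10 from 405 ± 29.4 in REC-1 to 737 ± 23.3 in Z138. The kinases at the head of the pathway lay between these extremes, SYK from 203 in Z138 to 1347 in JEKO-1 and LYN from 738 in Z138 to 2959 in REC-1.

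Averaged over the 5 lines with equal weight and set against the isotype control, GA101 changed 12 of the 31 genes (8 higher, 4 lower), beside 20.7% of all genes tested (14.1% higher, 6.55% lower). Rituximab changed 13 (10 higher, 3 lower) beside 23.5% (15.7% higher, 7.81% lower). The pair of antibodies changed 11 (8 higher, 3 lower) beside 19.9% (13.0% higher, 6.89% lower). The receptor genes that rose under all 3 treatments were CD79B, CD22, PLCG2, PIK3CD, PIK3CG and NFATC1, and LYN and SOS1 fell under all 3. The median change of the 31 genes was 0.01, 0.04 and 0.04 for GA101, rituximab and the pair, against 0.03, 0.02 and 0.02 for all genes. Of all genes called, 68.3%, 66.7% and 65.3% were higher, and with quantile normalization of the arrays 53.7%, 55.7% and 54.8%. Against PBS the shares of called genes that were higher were 68.7%, 68.1% and 65.7%, and 44.9%, 50.7% and 50.8% with quantile normalization. Quantile normalization called 4 higher and 6 lower of the 31 for GA101, 8 and 5 for rituximab, and 7 and 4 for the pair.

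Not all of these calls are equally firm. When each array was left out in turn, 7 of the 12 GA101 calls, 12 of the 13 rituximab calls and 10 of the 11 calls of the pair were kept in every fit. When the probe sets of a gene were averaged in place of taking the brightest, 5, 6 and 8 of these calls were kept. Averaging leaves the value of a gene with 1 probe set past the filter as it is. Among called genes with several, it kept 3 of 9, 3 of 10 and 5 of 8 calls, with PIK3CD, PLCG2 and SOS1 in all 3 comparisons. With the brightest probe set, quantile normalization ended the calls of CD22, CD79B, BTK and VAV1 for GA101, CD79B and INPP5D for rituximab and CD79B for the pair. Fitting without the filter ended those of CD22, LYN, SOS1 and VAV1 for GA101, INPP5D for rituximab and CD79B for the pair. Array weights ended the GA101 call of CD22, and a fit with no intensity trend those of LYN and VAV1.

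**Figure D2:**
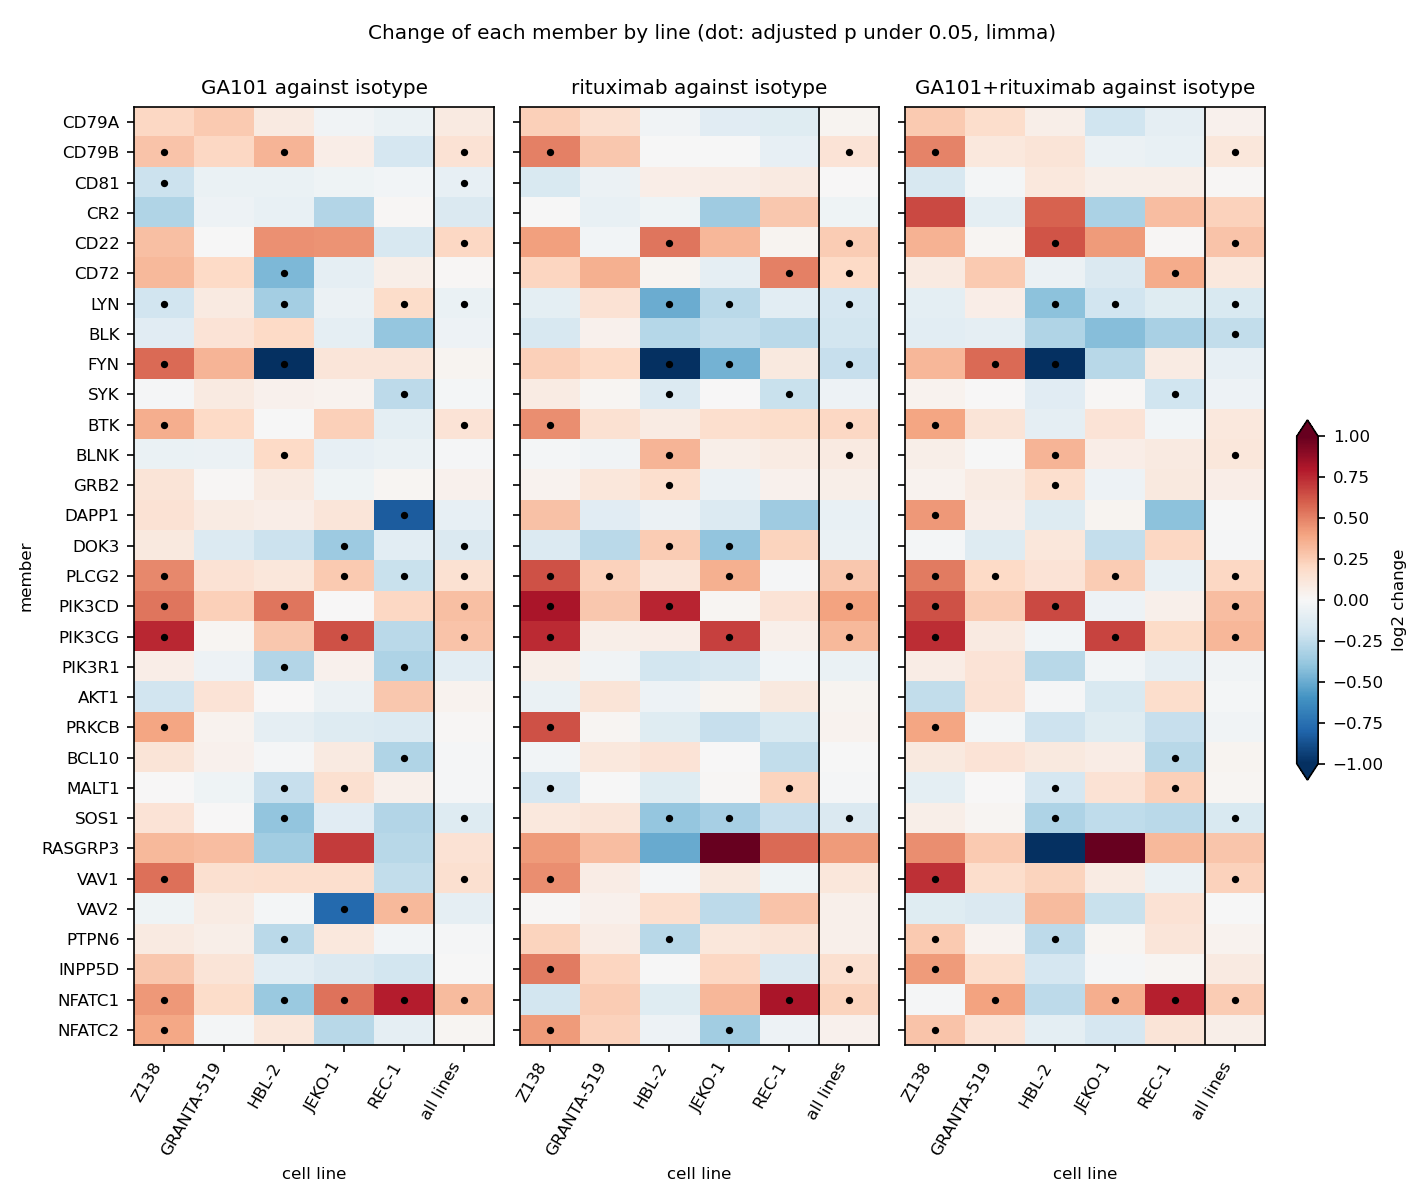
Log2 change against the isotype control (colour, capped at 1 unit) of each of the 31 genes in each line and over all lines (right of the black rule) for GA101, rituximab and both, with a dot where the limma adjusted p is under 0.05. Z138 holds many red cells with dots, GRANTA-519 very few dots, and FYN in HBL-2 deep blue with a dot in all 3 panels, while the strong colours of RASGRP3 and CR2 carry no dot.

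Within lines, 155 pairs of a gene and a line were tested in each comparison. GA101 changed 37 pairs (20 higher, 17 lower), beside 8.72% of such pairs over all genes. Rituximab changed 32 (20 higher, 12 lower) beside 8.90%, and the pair of antibodies 32 (24 higher, 8 lower) beside 7.35%. In Z138, GA101 changed 12 of the 31 genes (11.9% of all genes in that line), rituximab 10 (14.2%) and the pair 11 (11.8%). In HBL-2 the numbers were 11 (6.62%), 10 (11.1%) and 9 (9.61%), in JEKO-1 6 (8.20%), 7 (8.39%) and 4 (6.91%), and in REC-1 8 (13.4%), 4 (5.95%) and 5 (5.75%). In GRANTA-519 GA101 changed none of the 31 by limma with Benjamini-Hochberg adjustment, beside 3.53% of all genes. At an unadjusted p under 0.05, 5 of the 31 and 2071 of all 12520 genes passed. With adjustment, rituximab changed 1 (4.82%), PLCG2, and the pair 3 (2.65%), PLCG2, FYN and NFATC1. Averaging the probe sets of a gene ended these 4 calls. With each array left out in turn, 19 of the 37 GA101 pairs, 18 of the 32 rituximab pairs and 15 of the 32 pairs of the combination kept their call in every fit.

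The isotype arm itself differed from PBS. 6 of the 31 genes were called over all lines, beside 7.47% of all genes: CD79B at -0.18, PLCG2 at -0.11, PIK3CD at -0.18 and PIK3CG at -0.20 were lower with the isotype, and PTPN6 at 0.15 and MALT1 at 0.08 were higher. Averaging the probe sets kept the call of PTPN6 alone, which has a single probe set. The PIK3CD call was also lost without the filter (-0.18) and when any of 14 arrays was left out (-0.18 to -0.15, adjusted p up to 0.10). The MALT1 call was lost without Z138 isotype control replicate 1 or JEKO-1 PBS control replicate 1 or 2 (0.07 in each case). Of the 6 genes that rose under every treatment against isotype, 4 were also lower in isotype than in PBS. Both comparisons use the same isotype arrays, so they are not independent, and the share over all genes is not given here. Some results below are given against isotype alone. Over all lines, CD81 and DOK3 with GA101, FYN with rituximab and BLK with both were called against isotype and not against PBS. The same holds for FYN in Z138 with GA101. With GA101, NFATC1 in HBL-2 and BCL10 in REC-1 were called against isotype and not in the same direction against PBS. That was also so for GRB2 in HBL-2 with rituximab and with both, and for BCL10 in REC-1 with both.

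Against PBS, GA101 changed 5 of the 31 genes beside 12.0% of all genes, rituximab 11 beside 13.7% and the pair 7 beside 9.81%. Averaging the probe sets kept 3, 6 and 3 of these calls, and array weights raised the last number to 13, beside 1315 of all genes. For GA101, NFATC1 alone was called in the same direction against both controls, beside 8.06% of all genes. For rituximab 7 were (10.6% of all genes), with CD72, BLNK, PLCG2, PIK3CD, INPP5D and NFATC1 higher and LYN lower. For the pair 4 were (7.04%), with BLNK, PLCG2 and NFATC1 higher and LYN lower. The comparisons with 1 control share its arrays. SYK was below PBS under every treatment (-0.08, -0.11 and -0.11) and PTPN6 above it (0.14, 0.20 and 0.18), and neither was called against the isotype over all lines. The GA101 call of PTPN6 was lost with quantile normalization (0.10). MALT1 was above PBS by 0.07, 0.07 and 0.10, the first lost when any of 19 arrays was left out and the second when any of 17 was (0.06 to 0.07), and both with quantile normalization (0.04 and 0.05).

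**Figure D3:**
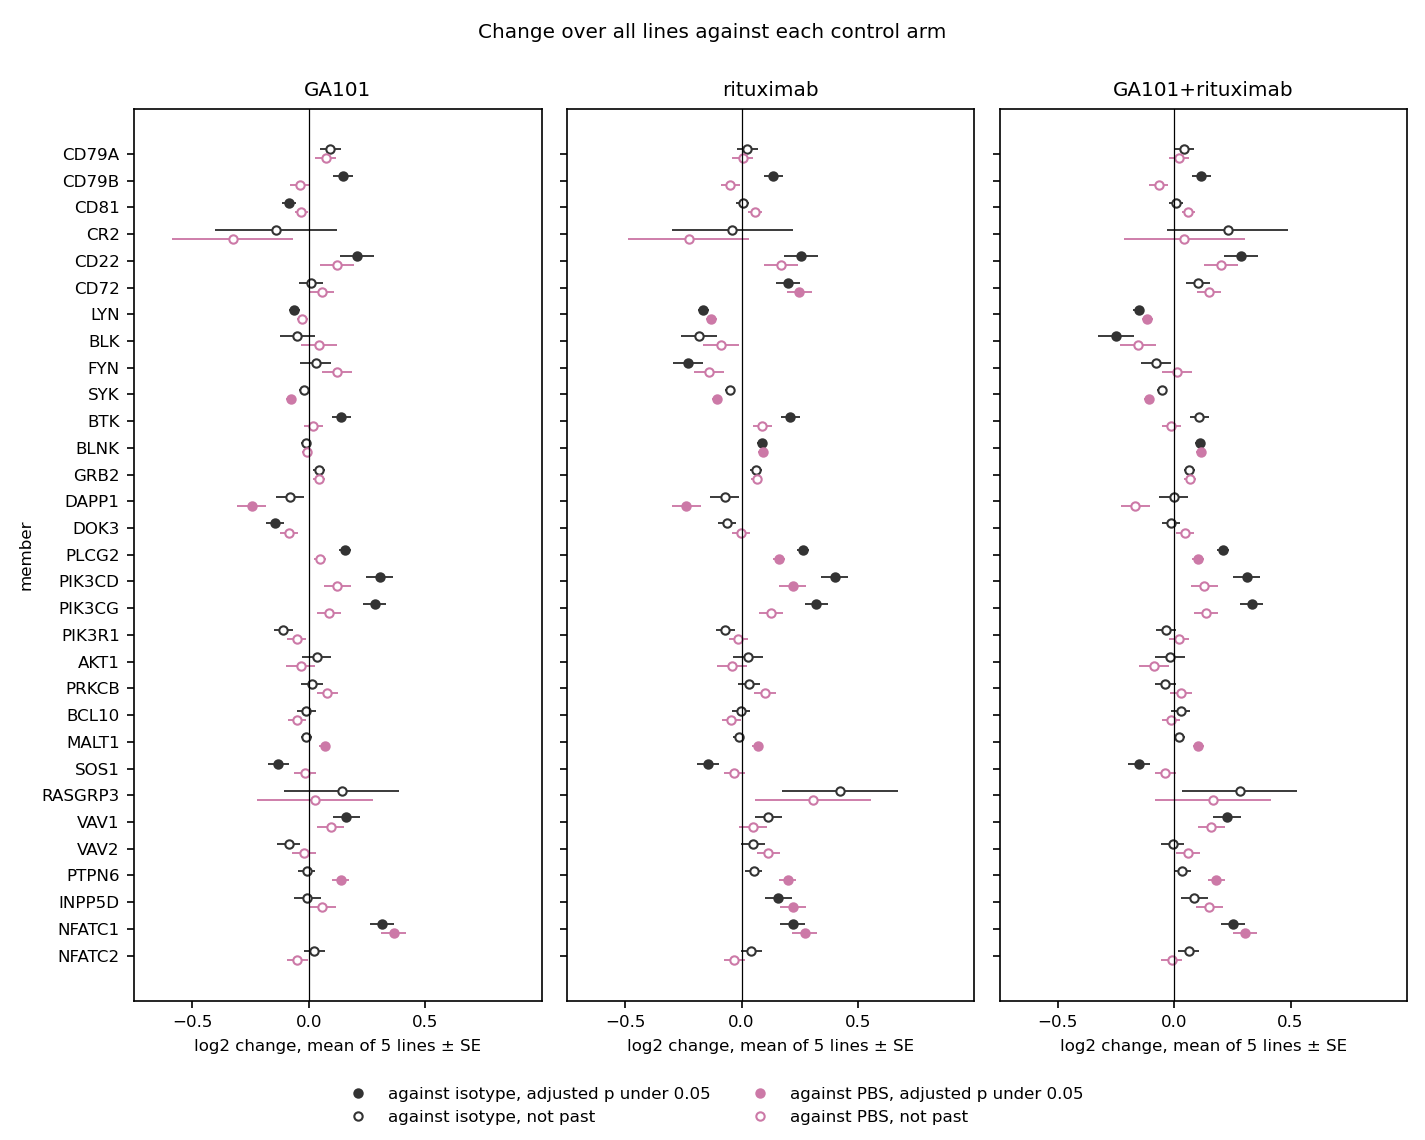
Change over all lines with its standard error for each of the 31 genes (rows) against the isotype control (black) and against PBS (pink), filled where the limma adjusted p is under 0.05, for the 3 treatments. NFATC1, PLCG2 and LYN keep filled points of both colours under rituximab, while CD79B and PIK3CG are filled against isotype only.

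Of the 8 genes that moved the same way under all 3 treatments, 4 that rose are shown with the 250 bases before their start sites. RefSeq promoter windows on GRCh38.p14 were found for 28 of the 32 genes listed, not for CD79B or LYN. PIK3CD, with 3 windows, and SOS1, with 2, are described by their matches only, to keep the set short. Capitals mark any match, on either strand, to 1 of 7 motifs: octamer ATTTGCAT, EGR GCGTGGGCG and its variant GCGGGGGCG, EBF core CCCNNGGG, PU.1 GAGGAAGT, NFAT TGGAAA and SP1 GGGCGG.
CD22, chr19:35328937-35329186, plus strand: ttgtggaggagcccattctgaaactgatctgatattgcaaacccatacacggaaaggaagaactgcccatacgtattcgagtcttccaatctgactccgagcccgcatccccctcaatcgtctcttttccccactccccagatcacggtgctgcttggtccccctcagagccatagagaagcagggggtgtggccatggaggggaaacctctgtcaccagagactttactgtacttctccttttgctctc
PLCG2, chr16:81738791-81739040, plus strand: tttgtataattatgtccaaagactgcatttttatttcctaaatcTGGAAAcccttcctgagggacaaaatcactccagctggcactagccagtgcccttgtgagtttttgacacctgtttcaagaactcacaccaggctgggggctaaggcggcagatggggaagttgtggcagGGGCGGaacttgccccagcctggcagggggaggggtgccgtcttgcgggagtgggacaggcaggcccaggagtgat
PIK3CG, chr7:106865229-106865478, plus strand: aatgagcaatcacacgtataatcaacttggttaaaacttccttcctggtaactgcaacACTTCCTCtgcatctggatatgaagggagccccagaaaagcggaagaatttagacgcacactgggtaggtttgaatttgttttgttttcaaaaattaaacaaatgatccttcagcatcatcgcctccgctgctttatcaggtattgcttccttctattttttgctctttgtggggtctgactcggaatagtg
NFATC1, first window, chr18:79395680-79395929, plus strand: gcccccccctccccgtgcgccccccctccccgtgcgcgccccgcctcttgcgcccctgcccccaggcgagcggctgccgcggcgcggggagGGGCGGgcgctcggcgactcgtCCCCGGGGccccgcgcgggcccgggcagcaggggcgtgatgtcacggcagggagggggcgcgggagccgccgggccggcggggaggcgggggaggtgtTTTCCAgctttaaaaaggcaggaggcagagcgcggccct
NFATC1, second window, chr18:79400049-79400298, plus strand: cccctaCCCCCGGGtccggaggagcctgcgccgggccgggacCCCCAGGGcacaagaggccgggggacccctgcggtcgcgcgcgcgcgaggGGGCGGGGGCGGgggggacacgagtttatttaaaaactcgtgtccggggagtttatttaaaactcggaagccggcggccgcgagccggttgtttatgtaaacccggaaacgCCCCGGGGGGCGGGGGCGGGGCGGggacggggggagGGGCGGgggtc
The CD22 window held none of the 7 motifs. The PLCG2 window held an NFAT match at -206 to -201 and an SP1 match at -76 to -71, counted back from the start. The PIK3CG window held a PU.1 match on the minus strand at -192 to -185, a motif in 2.17% of 35116 promoter windows. The second NFATC1 window held the EGR variant at -156 to -148 and at -38 to -30, each overlapping SP1 matches, and 4.72% of all windows hold that variant. The PIK3CD windows held 6 SP1 matches and 1 NFAT match in all, and the SOS1 windows 1 of each. SP1 letters are in 42.6% of windows and NFAT letters in 18%. A match of letters is a description and says nothing of binding.

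In the receptor complex itself, CD79B changed and CD79A did not pass. CD79A, which with CD79B carries the signalling tails, changed by 0.09 (95% interval 0.00 to 0.18) with GA101 and 0.03 (-0.06 to 0.11) with rituximab. CD79B in Z138 read 363, 364 and 314 with isotype, 415, 443 and 356 with PBS, 440, 435 and 389 with GA101, 544, 500 and 434 with rituximab and 508, 509 and 448 with both. All 9 antibody arrays lay above all 3 isotype arrays, and the GA101 arrays overlapped those of PBS. Its changes against isotype there were 0.28 ± 0.09 with GA101, 0.50 ± 0.09 with rituximab (limma adjusted p = 6.1e-05) and 0.49 ± 0.09 with both (adjusted p = 0.00011). The GA101 call in Z138 was lost without GA101 replicate 1 (0.25) or 2 (0.26) or isotype control replicate 3 (0.21). Over all lines the changes were 0.15, 0.14 and 0.12 against isotype and none was called against PBS. Averaging its 3 probe sets gave -0.0018 for GA101 over all lines, and the call was lost, as it was with quantile normalization (0.10 for GA101 and for rituximab). In Z138 averaging ended the 3 calls (0.03, 0.30 and 0.36). The all-line call with both was lost when any of 16 arrays was left out (0.10 to 0.12).

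Of the co-receptors, CD81, a tetraspanin of the B cell surface, fell by 0.09 ± 0.03 with GA101 over all lines, was lower in each of the 5 lines, and lost the call when any of 4 arrays was left out (-0.08 to -0.07). In Z138 it read 2135, 2217 and 2105 with isotype, 2286, 2164 and 2009 with PBS and 1962, 1844 and 1748 with GA101. The GA101 arrays were the lowest of these 9. The change was -0.22 ± 0.06 against each control, and the call against isotype was lost without GA101 replicate 3 (-0.18) or isotype control replicate 2 (-0.20), and that against PBS without any of 4 arrays (-0.22 to -0.17). CR2 was not called in any comparison with a control, in any line or over all lines.

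CD22 was higher with each treatment against isotype, by 0.21 ± 0.07 with GA101, 0.26 ± 0.07 with rituximab (limma adjusted p = 0.0066) and 0.29 ± 0.07 with both (adjusted p = 0.0025), and was higher in all 5 lines only with both. The GA101 call was lost when any of 11 arrays was left out (0.17 to 0.20, adjusted p up to 0.092), with quantile normalization (0.19), without the filter (0.21) and with array weights (0.18). Averaging its 4 probe sets ended the calls with GA101 (0.24) and with rituximab (0.27) and kept the call with both. Against PBS the 3 changes were not called. In HBL-2 it read 43.3, 65.7 and 55.5 with isotype, 92.6, 65.7 and 56.4 with PBS, 79.9, 79.2 and 75.6 with rituximab and 97.0, 78.9 and 76.1 with both. Both sets of rituximab-treated arrays were above isotype without overlap and overlapped PBS. Both HBL-2 calls, 0.53 with rituximab and 0.63 with both, were lost without isotype control replicate 1 (0.37 and 0.47). The first was also lost without rituximab replicate 1 or 2 (0.52 each), and the second without GA101+rituximab replicate 1 (0.52).

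CD72 separated the antibodies. Over all lines it rose by 0.20 ± 0.05 with rituximab (limma adjusted p = 0.0023) and by 0.25 ± 0.05 against PBS (adjusted p = 0.00035), higher in 5 of 5 lines against PBS. With GA101 it was 0.19 ± 0.05 lower than with rituximab (adjusted p = 0.027), a call lost without Z138 GA101 replicate 3 (-0.17), GRANTA-519 rituximab replicate 2 (-0.18) or HBL-2 GA101 replicate 1 (-0.18). In HBL-2 the arrays read 690, 688 and 685 with isotype, 546, 577 and 532 with PBS, 456, 543 and 521 with GA101 and 734, 719 and 649 with rituximab. GA101 lay below isotype and rituximab but overlapped PBS. In REC-1 they read 223, 198 and 158 with isotype, 199, 167 and 214 with PBS, 197, 189 and 210 with GA101, 284, 268 and 260 with rituximab and 254, 249 and 239 with both. Here all rituximab-treated arrays were above every other array of the line. The REC-1 change with rituximab was 0.50 ± 0.12 against isotype and 0.49 ± 0.12 against PBS, lost without isotype control replicate 3 (0.36) and PBS control replicate 2 (0.39) respectively.

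LYN, the main Src family kinase of B cells, which both starts and restrains receptor signalling, fell with rituximab and with both antibodies. Over all lines the change was -0.16 ± 0.02 with rituximab (limma adjusted p = 9.8e-08) and -0.15 ± 0.02 with both (adjusted p = 8.3e-07), and -0.13 and -0.12 against PBS. With GA101 it was -0.06 ± 0.02, a call lost when any of 19 arrays was left out, and -0.03 against PBS. GA101 was above rituximab by 0.10 ± 0.02 on average (adjusted p = 0.0054), higher in 3 of 5 lines.

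HBL-2 held the largest fall of LYN. It read 2016, 2067 and 1938 with isotype, 1851, 2022 and 1792 with PBS, 1695, 1571 and 1490 with GA101, 1467, 1437 and 1361 with rituximab and 1538, 1462 and 1519 with both. Every antibody array was below every control array. The changes against isotype were -0.34, -0.50 and -0.41, each ± 0.05, with a largest adjusted p of 3.5e-06, and they were -0.25, -0.41 and -0.32 against PBS. All 6 calls were kept with each array left out in turn. With rituximab in JEKO-1, LYN was also called lower against both controls.

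In REC-1, LYN went up with GA101. It read 2981, 2909 and 2962 with isotype, 3105, 2965 and 2829 with PBS, 3355, 3404 and 3308 with GA101, 2782, 2751 and 2712 with rituximab and 2643, 2744 and 2763 with both. The 3 GA101 arrays were the highest and the 6 arrays with rituximab the lowest of the line. GA101 was above isotype by 0.19 ± 0.05 (limma adjusted p = 0.010) and above rituximab by 0.29 ± 0.05 (adjusted p = 0.00021). Adding rituximab to GA101 lowered it by 0.31 ± 0.05 against GA101 alone (adjusted p = 9.6e-05). The 5 lines differed in their response of LYN to GA101 (moderated F test, adjusted p = 4.6e-07) and to rituximab (adjusted p = 1.9e-08), and in the difference between the antibodies (adjusted p = 0.00029). The 2 further probe sets of LYN were not called over all lines, at -0.01 and 0.00 with GA101 and -0.21 and -0.19 with rituximab, and the calls end when the 3 are averaged.

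FYN fell over all lines with rituximab by 0.23 ± 0.06 (limma adjusted p = 0.0053), and its fall in HBL-2 was the largest called change of the 31 genes in a line. In HBL-2 it read 395, 304 and 363 with isotype, 239, 225 and 245 with PBS, 169, 167 and 192 with GA101, 139, 154 and 163 with rituximab and 181, 144 and 172 with both. The isotype arrays were the highest, the PBS arrays came next and all 9 antibody arrays were below both. Against isotype FYN fell by 1.0 ± 0.15, 1.21 ± 0.15 and 1.09 ± 0.15 on the log2 scale (largest limma adjusted p 1.1e-06). The isotype was itself 0.58 ± 0.15 above PBS (adjusted p = 0.023), a call lost when any of 5 arrays was left out (0.49 to 0.60). Against PBS the falls were 0.43, not called, 0.64 (adjusted p = 0.0015) and 0.52 (adjusted p = 0.015). The last of these was lost without HBL-2 GA101+rituximab replicate 2 (-0.42) or PBS control replicate 1 (-0.51) or 3 (-0.49).

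In REC-1, where FYN is brightest, it read 985, 1110 and 1125 with isotype and 1181, 1104 and 1220 with GA101, and none of the 3 treatments was called. In Z138, where FYN is dim, it rose with GA101 from 42.5, 34.8 and 38.9 to 65.3, 53.6 and 53.1, by 0.56 ± 0.15, a call lost without GA101 replicate 1 (0.47). Its all-line change was 0.26 ± 0.06 higher with GA101 than with rituximab (limma adjusted p = 0.013), in the same direction in 5 of 5 lines. The response to GA101 differed between lines (adjusted p = 2.5e-07), as did that to rituximab (adjusted p = 1.3e-07). When the 5 probe sets of FYN were averaged, the HBL-2 changes stayed below isotype but the GA101 call was lost (-0.45). The all-line calls with rituximab (-0.18) and between the antibodies (0.33) ended too, and the Z138 change turned to -0.13.

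BLK, the B cell restricted member of the same kinase family, was called once over all lines, at -0.25 ± 0.08 with both antibodies (limma adjusted p = 0.014) and lower in 5 of 5 lines. In JEKO-1 it read 336, 322 and 293 with isotype, 298, 279 and 244 with PBS and 210, 277 and 226 with both. The treated arrays were below isotype and overlapped PBS, and no single line passed.

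**Figure D4:**
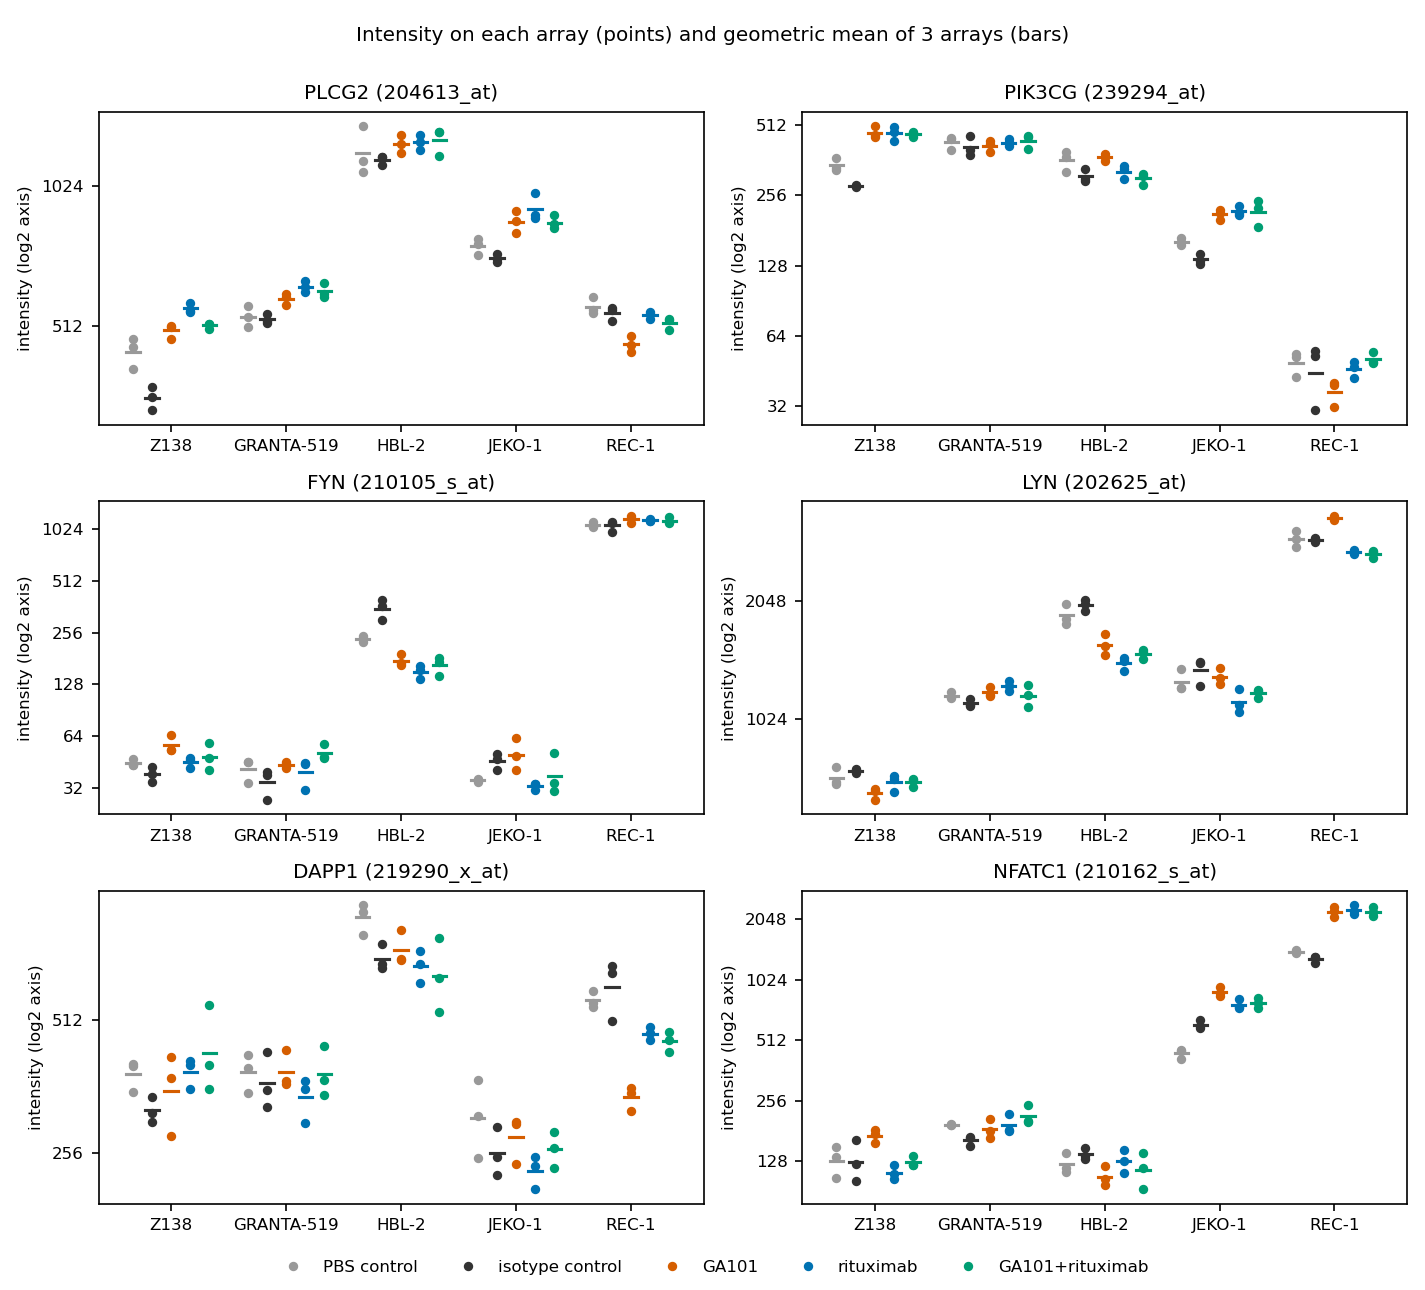
Intensity (log2 axis) of 6 genes on every array, by line and treatment, with 3 points per group and a bar at their geometric mean. LYN and FYN drop in HBL-2 with all 3 antibody treatments, NFATC1 in REC-1 is at 2112 or more on all 9 antibody arrays, and DAPP1 drops in REC-1 with GA101 to 319 to 359.

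SYK, the kinase that docks on the phosphorylated receptor tails, changed little. In REC-1 it read 939, 942 and 882 with isotype, 885, 926 and 915 with PBS, 758, 758 and 783 with GA101, 777, 801 and 785 with rituximab and 827, 793 and 785 with both. All 9 antibody arrays were below the 6 control arrays. The changes against isotype were -0.26, -0.22 and -0.20, each ± 0.05 (limma adjusted p = 4.5e-05, 0.0011 and 0.0044), and were kept with each array left out. In HBL-2, rituximab lowered SYK by 0.22 ± 0.05 against PBS (adjusted p = 0.00094), where arrays fell from 652, 592 and 595 to 536, 546 and 501. When the 4 probe sets of SYK were averaged the REC-1 calls were lost (-0.16, -0.10 and -0.13), as was the HBL-2 call (-0.16). The calls against PBS over all lines ended as well (0.02, -0.03 and -0.11).

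BTK, the kinase blocked by ibrutinib, rose with GA101 by 0.14 ± 0.04 (limma adjusted p = 0.0099) and with rituximab by 0.21 ± 0.04 (adjusted p = 6.7e-05) over all lines against isotype, and was not called against PBS. The GA101 call was lost with quantile normalization (0.10). In Z138 it read 309, 332 and 275 with isotype, 341, 383 and 351 with PBS, 407, 400 and 366 with GA101, 429, 437 and 394 with rituximab and 408, 412 and 379 with both. All antibody arrays were above isotype, and only the rituximab arrays were clear of PBS. The change with rituximab there was 0.46 ± 0.09 (adjusted p = 0.00017).

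Among the adaptors BLNK gave the tightest result. Over all lines it rose by 0.09 ± 0.02 with rituximab (limma adjusted p = 0.00031) and by 0.11 ± 0.02 with both (adjusted p = 8.7e-06), with the same sizes against PBS. With GA101 it was -0.01, and 0.10 ± 0.02 below rituximab (adjusted p = 0.00048) in 5 of 5 lines. HBL-2 was the only line in which BLNK was called against a control, and there it read 1774, 1727 and 1828 with isotype, 1819, 1771 and 1698 with PBS, 2088, 1944 and 2100 with GA101, 2294, 2180 and 2288 with rituximab and 2218, 2249 and 2281 with both. The antibody arrays were all above the controls, and the GA101 arrays were below all other antibody arrays. The HBL-2 changes against isotype were 0.20, 0.34 and 0.34, each ± 0.04, kept with each array left out.

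GRB2, which links the receptor to Ras, was called only in HBL-2, at 0.17 ± 0.06 with rituximab and with both, and each call was lost when any of 5 arrays was left out (0.12 to 0.18). DAPP1, a lipid-binding adaptor downstream of PI3K, fell in REC-1 with GA101. It read 509, 652 and 676 with isotype, 546, 595 and 559 with PBS, 350, 319 and 359 with GA101, 460, 492 and 477 with rituximab and 480, 460 and 433 with both. The GA101 arrays were the lowest of the line. The change was -0.83 ± 0.14 against isotype (limma adjusted p = 1.2e-05) and -0.73 ± 0.14 against PBS (adjusted p = 0.00012). GA101 was 0.48 ± 0.14 below rituximab (adjusted p = 0.036), a call lost when any of 5 arrays was left out.

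DAPP1's brightest probe set is of the kind whose name marks probes that can bind related transcripts. Over all lines it was 0.25 ± 0.06 below PBS with GA101 (limma adjusted p = 0.0043) and 0.24 ± 0.06 below with rituximab (adjusted p = 0.0049). Against isotype it changed by -0.08 with GA101 and was not called, while another of its 4 probe sets was called at 0.11 with GA101 and 0.10 with rituximab. With the 4 averaged, the REC-1 change with GA101 was -0.35 and not called, and the calls against PBS over all lines ended (-0.05 and -0.11). DOK3, an adaptor that dampens calcium signals, fell by 0.15 ± 0.04 with GA101 over all lines (adjusted p = 0.0039). In JEKO-1 it read 1661, 1680 and 1719 with isotype, 1479, 1456 and 1539 with PBS, 1260, 1307 and 1359 with GA101 and 1360, 1306 and 1185 with rituximab, these 6 antibody arrays below all 6 controls. With both antibodies it read 1444, 1302 and 1550, overlapping PBS. The JEKO-1 changes against isotype were -0.37 ± 0.09 with GA101 and -0.40 ± 0.09 with rituximab. Neither these falls nor the all-line fall with GA101 were called against PBS.

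In HBL-2 DOK3 parted the antibodies, at 1472, 1294 and 1275 with isotype, 1345, 1184 and 1069 with PBS, 1266, 1021 and 1208 with GA101, 1705, 1505 and 1615 with rituximab and 1584, 1401 and 1395 with both. The rituximab arrays were above GA101, isotype and PBS and overlapped those with both antibodies. GA101 was 0.47 ± 0.09 below rituximab (limma adjusted p = 0.0003). The difference between the antibodies varied between lines for DOK3 more clearly than for any other of the 31 genes (F test adjusted p = 6e-05). The second DOK3 probe set moved the other way over all lines without passing (0.10 with GA101), and with both averaged the all-line call was lost (-0.02), as were the JEKO-1 calls (-0.21 and -0.21) and the HBL-2 difference (-0.28).

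PLCG2, the phospholipase that turns receptor engagement into calcium and diacylglycerol, had the smallest adjusted p of the 31 genes against isotype under rituximab and under both antibodies. Over all lines it rose by 0.16 ± 0.03 with GA101 (limma adjusted p = 4.1e-06), 0.27 ± 0.03 with rituximab (adjusted p = 1.8e-12) and 0.21 ± 0.03 with both (adjusted p = 4.1e-09), in 4 of 5 lines each time. Against PBS the changes were 0.05, not called, 0.16 (adjusted p = 4.7e-06) and 0.10 (adjusted p = 0.005). GA101 was 0.11 ± 0.03 below rituximab (adjusted p = 0.0062) in 5 of 5 lines.

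In Z138 PLCG2 read 361, 338 and 379 with isotype, 463, 482 and 415 with PBS, 512, 514 and 482 with GA101, 551, 553 and 575 with rituximab and 520, 507 and 519 with both. Every antibody array was above every isotype array, and the isotype arrays were below PBS by 0.33 ± 0.06 (limma adjusted p = 0.00013). The changes against isotype were 0.48, 0.64 and 0.52, each ± 0.06, and against PBS only rituximab passed, at 0.31 ± 0.06. In JEKO-1 it read 703, 733 and 716 with isotype, 771, 787 and 730 with PBS, 812, 861 and 907 with GA101, 887, 875 and 990 with rituximab and 848, 888 and 831 with both, all 9 above the controls. In REC-1 the sign turned with GA101, where 467, 451 and 489 lay below 561, 556 and 526 with isotype and 592, 555 and 546 with PBS. That fall was 0.22 ± 0.06 against isotype (adjusted p = 0.0043) and 0.27 ± 0.06 against PBS (adjusted p = 0.00069). The response to GA101 differed between lines (F test adjusted p = 3.5e-08), as did that to rituximab (adjusted p = 8.2e-08).

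A second PLCG2 probe set was not called over all lines, at -0.01, -0.06 and -0.04 with GA101, rituximab and both. Averaging the 2 probe sets ended the difference between GA101 and rituximab (-0.03) and the call of both against PBS (0.07), while the calls against isotype over all lines were kept. The call of both against PBS also ended with quantile normalization (0.08).

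**Figure D5:**
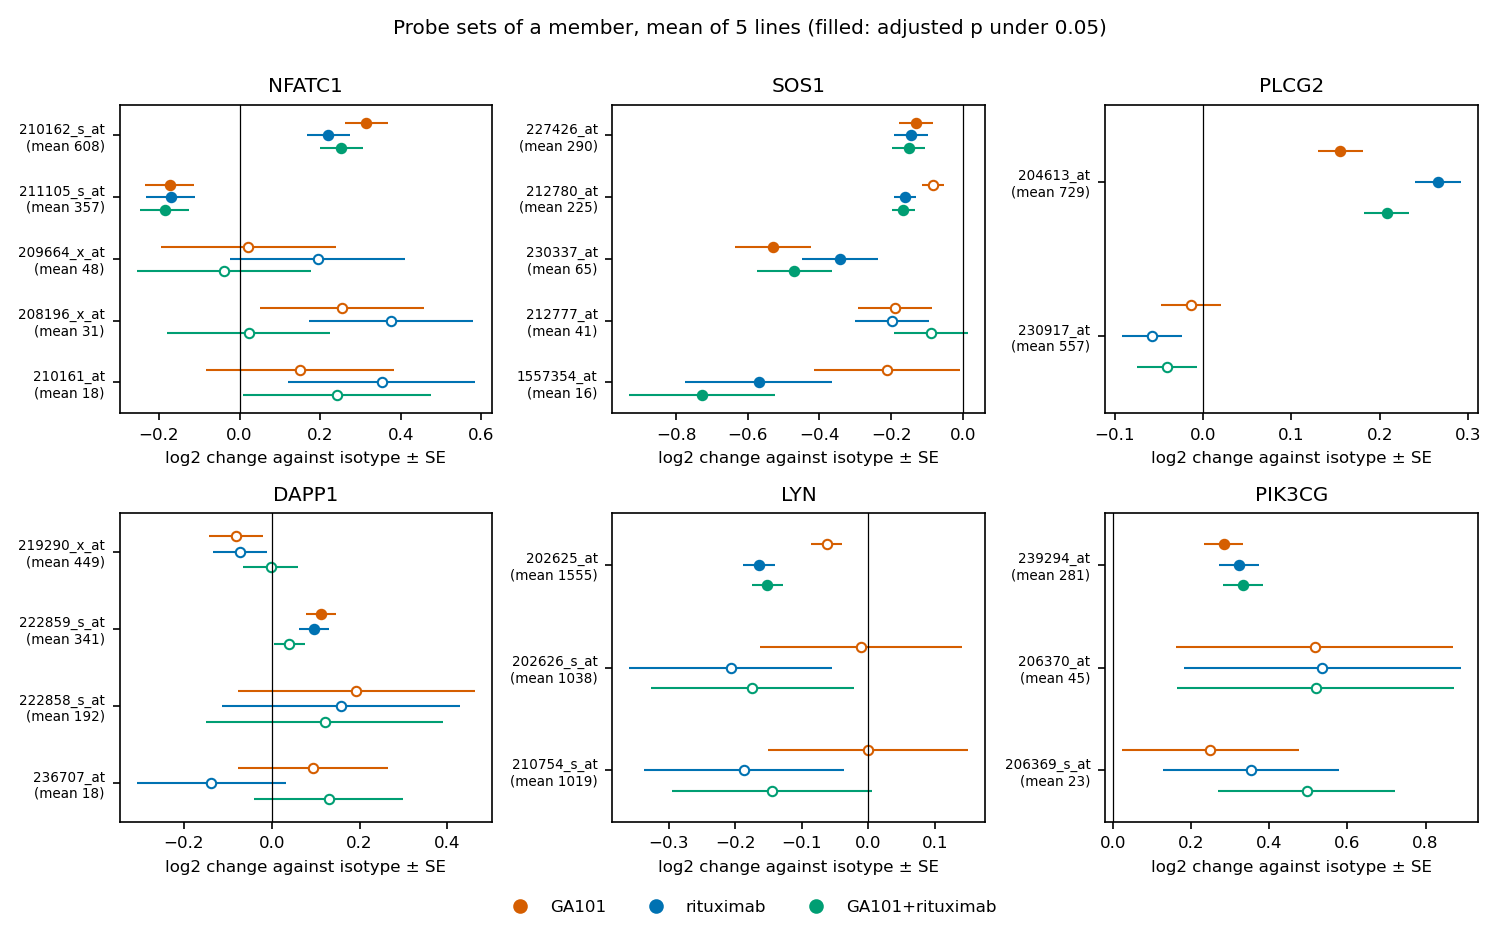
Change against isotype over all lines with its standard error for every probe set past the filter of 6 genes (rows, brightest first, with mean intensity), filled where the adjusted p over all probe sets is under 0.05. NFATC1 has filled points on both sides of 0, at 0.31 and -0.17 with GA101, and the second PLCG2 probe set is near 0.

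PI3K subunits rose in some lines only. PIK3CD, the p110 delta catalytic subunit that dominates in B cells, rose over all lines by 0.30 ± 0.06 with GA101 (limma adjusted p = 4.1e-05), 0.40 ± 0.06 with rituximab (adjusted p = 1.1e-07) and 0.31 ± 0.06 with both (adjusted p = 2.6e-05). Against PBS only rituximab passed, at 0.22 ± 0.06 (adjusted p = 0.0047). In Z138 it read 778, 722 and 683 with isotype, 902, 835 and 755 with PBS, 1074, 1204 and 909 with GA101, 1543, 1241 and 1095 with rituximab and 1333, 1052 and 1032 with both. All antibody arrays exceeded all controls. The Z138 changes against isotype were 0.54, 0.82 and 0.64, each ± 0.13, and 0.63 ± 0.13 against PBS with rituximab. In HBL-2, where PIK3CD is dimmest, isotype arrays at 286, 307 and 216 and PBS arrays at 339, 421 and 285 compared with 464, 470 and 422 for rituximab. The rituximab arrays did not overlap either control, but their lowest, 422, was next to the highest PBS array, 421. The changes were 0.76 ± 0.13 against isotype and 0.39 ± 0.13 against PBS. The second was lost when any of 4 arrays was left out (0.26 to 0.38). Averaging its 2 probe sets kept the all-line calls against isotype and ended the call against PBS (0.24) and the Z138 calls with GA101 (0.34) and both (0.46).

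PIK3CG, the p110 gamma subunit, rose over all lines by 0.28, 0.32 and 0.33, each ± 0.05 (largest limma adjusted p 1.6e-05), and was not called against PBS. Z138 and JEKO-1 carried the rise. In Z138 it read 283, 280 and 279 with isotype, 336, 371 and 329 with PBS, 465, 507 and 453 with GA101, 479, 500 and 437 with rituximab and 454, 478 and 474 with both. In JEKO-1 it read 131, 144 and 134 with isotype, 161, 156 and 168 with PBS, 220, 216 and 201 with GA101, 231, 211 and 215 with rituximab and 226, 241 and 188 with both. In both lines every antibody array exceeded every control array. The changes were 0.76, 0.75 and 0.74 in Z138 and 0.64, 0.68 and 0.67 in JEKO-1 against isotype.

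Against PBS, PIK3CG in these lines changed by 0.39 to 0.46, and each of those 6 calls was lost without at least 2 of the 6 arrays compared, with values of 0.35 to 0.43. In REC-1 the gene is dim, and GA101 arrays at 40.2, 39.4 and 31.8 compared with 52.0, 53.6 and 42.9 for PBS (-0.42 ± 0.11). That call was lost without GA101 replicate 3 (-0.31) or PBS control replicate 1 (-0.38) or 2 (-0.36). Its 2 dimmer probe sets moved upward too, by 0.25 to 0.54 over all lines, without passing. Averaging the 3 ended the all-line calls with GA101 (0.35) and with rituximab (0.40) and kept the call with both. It also ended the calls in Z138 (0.64, 0.53 and 0.59) and JEKO-1 (0.86, 0.59 and 0.84) against isotype. The response of PIK3CG to GA101 differed between lines (F test adjusted p = 2.2e-06).

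PIK3R1 was called lower with GA101 in HBL-2 (-0.29 ± 0.09) and REC-1 (-0.31 ± 0.09) and not over all lines. In REC-1 it read 418, 424 and 434 with isotype, 346, 399 and 356 with PBS and 323, 343 and 364 with GA101, so that GA101 was clear of isotype but overlapped PBS. The REC-1 call was lost without GA101 replicate 1 (-0.27) or isotype control replicate 3 (-0.30), and that in HBL-2 without any of 5 arrays (-0.31 to -0.24). Averaging its 3 probe sets ended both (-0.09 in REC-1 and -0.19 in HBL-2). AKT1, the kinase that PI3K lipids recruit, was called nowhere, with 0.03 (95% interval -0.09 to 0.16) for GA101 and 0.03 (-0.10 to 0.16) for rituximab over all lines.

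In the NF-kB arm, PRKCB, a protein kinase C of B cells, rose in Z138 alone. It read 159, 155 and 159 with isotype, 158, 174 and 164 with PBS, 227, 180 and 217 with GA101, 219, 237 and 285 with rituximab and 191, 180 and 257 with both. All 9 antibody arrays were above all 6 controls. The rise with rituximab was 0.64 ± 0.10 against isotype (limma adjusted p = 6.4e-06) and 0.57 ± 0.10 against PBS (adjusted p = 0.00018). The GA101 rise of 0.39 was lost without GA101 replicate 1 (0.33), and that of both, also 0.39, without GA101+rituximab replicate 3 (0.23). Averaging its 5 probe sets ended the 3 calls against isotype (0.16, 0.31 and -0.09).

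MALT1, a paracaspase that leads to NF-kB, rose in REC-1. It read 670, 677 and 662 with isotype, 580, 590 and 599 with PBS, 682, 674 and 727 with GA101, 752, 787 and 808 with rituximab and 776, 812 and 777 with both. The 6 arrays with rituximab were the highest of the line. Rituximab was above isotype by 0.22 ± 0.05 (limma adjusted p = 0.0037) and above PBS by 0.41 ± 0.05 (adjusted p = 1.2e-07). In HBL-2 it went down with GA101, from 727, 732 and 708 with isotype and 674, 700 and 670 with PBS to 607, 620 and 624. That fall was 0.23 ± 0.05 against isotype (limma adjusted p = 0.0028) and was not called against PBS. With GA101 in JEKO-1, MALT1 was called higher against both controls. BCL10, the partner of MALT1, was called in REC-1 only, at -0.30 ± 0.09 with GA101, lost without GA101 replicate 2 (-0.22) or isotype control replicate 1 (-0.27), and at -0.28 with both, lost without any of 5 arrays. Averaging ended both calls (-0.17 and -0.28).

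Of the exchange factors, SOS1, which loads Ras, fell over all lines by 0.13, 0.14 and 0.15, each ± 0.05 (limma adjusted p = 0.035, 0.016 and 0.013), and was not called against PBS. The GA101 call was lost when any of 10 arrays was left out (-0.13 to -0.11). HBL-2 carried the fall, from 283, 245 and 335 with isotype and 259, 243 and 258 with PBS to 213, 213 and 227 with GA101 and 218, 206 and 231 with rituximab. All 6 were below the controls, yet both calls (-0.39) were lost without isotype control replicate 3 (-0.28 and -0.27) and when the probe sets were averaged (-0.40 and -0.31). The 4 further probe sets of SOS1 were all negative in the 3 comparisons, and 1 of them was called in each, at -0.53, -0.34 and -0.47.

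VAV1, the Rac exchange factor of blood cells, rose in Z138, from 97.7, 126 and 96.7 with isotype and 109, 122 and 92.0 with PBS to 160, 163 and 144 with GA101, 131, 176 and 134 with rituximab and 164, 192 and 172 with both. The antibody arrays did not overlap the controls. The changes were 0.55 ± 0.13 with GA101 (limma adjusted p = 0.0024), 0.46 with rituximab and 0.73 ± 0.13 with both (adjusted p = 5.8e-05), and 0.71 ± 0.13 for both against PBS (adjusted p = 0.00033). The rituximab call was lost without rituximab replicate 2 (0.33) or isotype control replicate 1 or 3 (0.40 each).

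VAV2, a wider expressed relative, fell in JEKO-1 with GA101. It read 436, 414 and 467 with isotype, 331, 302 and 307 with PBS, 271, 278 and 221 with GA101, 351, 403 and 347 with rituximab and 362, 406 and 359 with both. GA101 arrays were the lowest and isotype arrays the highest of the line. The change was -0.78 ± 0.11 against isotype (limma adjusted p = 6.6e-07). The isotype was 0.49 ± 0.11 above PBS, a call lost without isotype control replicate 3 (0.44) or with its 2 probe sets averaged (0.47), and against PBS the GA101 change was -0.29 and not called. With GA101 in REC-1 the direction was the opposite, and VAV2 was called higher against both controls. RASGRP3 was not called in any comparison, and its all-line change with rituximab of 0.42 had a 95% interval from -0.07 to 0.92.

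Of the phosphatases that end the signal, PTPN6 (SHP-1) was above PBS over all lines in every other arm, isotype included. In Z138 it read 297, 304 and 268 with PBS, 339, 317 and 336 with isotype, 384, 337 and 335 with GA101, 429, 372 and 362 with rituximab and 430, 377 and 383 with both. All 9 antibody arrays were above PBS, the arrays with rituximab were also above isotype, and those of GA101 alone overlapped isotype. The rises were 0.42 ± 0.08 with rituximab (limma adjusted p = 0.00059) and 0.45 ± 0.08 with both (adjusted p = 0.00025) against PBS. In HBL-2 the direction against isotype was down, from 744, 740 and 663 to 617, 618 and 544 with GA101, while PBS arrays at 599, 584 and 556 overlapped the treated ones. Those HBL-2 calls (-0.27, -0.28 and -0.26) were each lost when any of 3 or 4 arrays was left out (-0.27 to -0.21).

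INPP5D (SHIP1), the lipid phosphatase that opposes PI3K, rose with rituximab over all lines by 0.22 ± 0.06 against PBS (limma adjusted p = 0.0047) and by 0.16 ± 0.06 against isotype, the second lost when any of 14 arrays was left out (0.13 to 0.16). Averaging its 3 probe sets ended both calls (0.17 and 0.13). In Z138 it read 147, 131 and 108 with isotype, 136, 155 and 115 with PBS and 183, 193 and 172 with rituximab. The rituximab arrays were above all 6 controls, and the rise of 0.52 was lost without isotype control replicate 3 (0.40) and on averaging (0.35).

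NFATC1 was the gene called against both controls under every treatment. Over all lines it rose against isotype by 0.31 ± 0.05 with GA101 (limma adjusted p = 5.6e-06), 0.22 ± 0.05 with rituximab (adjusted p = 0.001) and 0.25 ± 0.05 with both (adjusted p = 0.0002), and against PBS by 0.36, 0.27 and 0.30. In REC-1 it read 1327, 1245 and 1332 with isotype, 1405, 1390 and 1441 with PBS, 2254, 2112 and 2357 with GA101, 2263, 2188 and 2414 with rituximab and 2119, 2216 and 2352 with both. All 9 antibody arrays lay far above the 6 controls. The changes were 0.78, 0.81 and 0.78 against isotype and 0.67, 0.70 and 0.66 against PBS, each ± 0.12.

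In JEKO-1 NFATC1 read 456, 414 and 453 with PBS, 645, 587 and 604 with isotype, 880, 847 and 946 with GA101, 749, 744 and 819 with rituximab and 788, 740 and 833 with both. The order was PBS, isotype and then the antibodies, with no overlap between these steps. GA101 was 1.01 ± 0.12 above PBS (limma adjusted p = 1.1e-08) and 0.54 ± 0.12 above isotype (adjusted p = 0.001). The isotype was 0.47 ± 0.12 above PBS, a call lost without isotype control replicate 1 (0.43) or PBS control replicate 2 (0.43). In HBL-2 GA101 lowered it by 0.37 ± 0.12, lost when any of 5 arrays was left out. In Z138 GA101 raised it to 175, 158 and 182 while rituximab gave 104, 111 and 123, a difference of 0.61 ± 0.12 (adjusted p = 0.00065). The responses of NFATC1 to GA101 (F test adjusted p = 3.7e-06) and to rituximab (adjusted p = 2.9e-05) differed between lines.

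A pair of NFATC1 probe sets disagreed in direction. The brightest gave the values above, and another fell over all lines by 0.17, 0.17 and 0.19, each past the threshold. Of the 3 further probe sets none was called. Averaging all 5 gave 0.11, 0.19 and 0.06 over all lines against isotype, none called, and kept the calls against PBS with GA101 and rituximab. In REC-1 and JEKO-1 averaging kept no call against either control. NFATC2, a second member of the family, rose in Z138 from 189, 203 and 208 with isotype to 265, 256 and 261 with GA101 and 271, 267 and 268 with rituximab, with 230, 228 and 246 in PBS between them. The rises were 0.39 ± 0.10 and 0.43 ± 0.10 against isotype (adjusted p = 0.0051 and 0.0014), with no call against PBS.

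The antibodies were also compared with each other. Over all lines 5 of 31 were called between GA101 and rituximab, beside 2.58% of all genes: FYN and LYN higher, and CD72, PLCG2 and BLNK lower with GA101. Adding rituximab to GA101 changed 2, beside 1.69% of all genes, of which 40.6% were higher, or 55.3% with quantile normalization. These were LYN (-0.09, lost when any of 9 arrays was left out, -0.09 to -0.08, or with quantile normalization, -0.08) and BLNK (0.12 ± 0.02, limma adjusted p = 1.2e-05). Adding GA101 to rituximab changed 0 of the 31 and 0 of all 12520 genes by limma with Benjamini-Hochberg adjustment. At an unadjusted p under 0.05, 3 of the 31 (BTK, FYN and PLCG2) and 661 of all genes passed. The changes of the 31 genes in that comparison ran from -0.14 to 0.27, with 95% intervals reaching from -0.64 to 0.79 for the dim RASGRP3 and CR2.

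The response to GA101 against isotype differed between the 5 lines for 17 of the 31 genes, beside 16.1% of all genes tested, and the response to rituximab for 16, beside 13.1%. The GA101 minus rituximab difference varied between lines for 7, beside 4.23%. With GA101 against isotype, 6 genes were called higher in 1 line and lower in another: LYN, PLCG2, NFATC1, FYN, MALT1 and VAV2. Of all 12520 genes, 342 (2.73%) were called in both directions in that comparison.

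Among 64 other genes of the pathway that were tested, 16 (25%) were called with each treatment against isotype over all lines. That is near the 20.7%, 23.5% and 19.9% of all genes tested. When probe sets were averaged, 9, 10 and 10 were called, beside 1886, 2170 and 1776 of all genes. The 16 were 13 higher and 3 lower for GA101 and 12 higher and 4 lower for rituximab. ITPR1, the calcium channel that PLCG2's product opens, rose by 0.40 with GA101 and 0.50 with rituximab, and the adaptor BANK1, which binds it, by 0.22 and 0.32. GAB2, a docking protein for PI3K, fell by 0.39 with GA101 and by 0.40 with both, lower in 5 of 5 lines each time. PIK3R5, the regulatory partner of PIK3CG, rose by 0.47 with GA101 in 5 of 5 lines, a call lost without any of 4 arrays (0.40 to 0.42) or with array weights (0.37). RAC2, the GTPase that VAV1 loads, rose by 0.26 with rituximab. NFKB1, the NF-kB subunit, went opposite ways, 0.17 higher with GA101 and 0.12 lower with rituximab, and was 0.29 higher with GA101 than with rituximab (limma adjusted p = 1.8e-09).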

How the data were processed

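The deposited values are MAS5 signal intensities on a linear scale, 1 per probe set and array, per the submitters' processing notes, and the MAS5 version is not given in the sources used here. The authors had scaled the arrays, since the mean intensity was the same on all 75. Intensities under 1 were set to 1 and log2 was taken. The filter kept a probe set whose mean log2 in any line, over its 15 arrays, exceeded 4.13 (an intensity of 17.5), the median of single-symbol probe sets. Each gene was represented by its brightest probe set. limma 3.58.1 in R 4.3.3 fitted 25 group means and moderated the variances along intensity. Two-sided p-values, Benjamini-Hochberg adjusted across the 12520 genes of a comparison, were called under 0.05. Contrasts over all lines weight the 5 lines equally, and moderated F tests compared responses between lines. The script was tested on simulated data. Replicates share numbers across groups, which no label ties to a culture or day, so the fit had no replicate block. Alternatives were a replicate block, no filter, averaging the probe sets of a gene, quantile normalization, an offset in place of the floor, array weights, no trend, and leaving out each array. All 32 genes are accounted for by role. Values were drawn from up to 5 genes with the largest called changes per comparison over all lines. Within a line they were drawn from up to 3 per comparison whose arrays do not overlap. Some of these are left without values, such as VAV2 in REC-1 and LYN, FYN and INPP5D in JEKO-1. Other values cover the 4 genes with the smallest adjusted p per F test and the 6 widest and 3 narrowest control spreads. Genes whose probe sets oppose were added, with some of up to 4 other pathway genes per comparison. Some further called members are named beside them. The members and lists were chosen with earlier results of these data known. Arrays give no read depth, and their number limits the precision.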

Additional observations from a re-analysis of the deposited data

Results flagged for a closer look

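By the moderated F test (limma, adjusted over all genes), the response to GA101 against isotype differed between the 5 lines for 17 of the 31 genes. The share over all genes tested was 16.1%. The smallest adjusted p-values were 3.5e-08 for PLCG2, 2.5e-07 for FYN, 4.6e-07 for LYN and 2.2e-06 for PIK3CG. The response to rituximab differed for 16 genes, beside 13.1% of all genes, with 1.9e-08 for LYN, 8.2e-08 for PLCG2, 1.3e-07 for FYN and 9.4e-06 for BLNK. The difference between GA101 and rituximab varied between lines for 7 genes, beside 4.23% of all genes. Its smallest values were 6e-05 for DOK3, 0.00029 for LYN, 0.002 for MALT1 and 0.003 for NFATC1. These counts fell when probe sets were averaged, as given below.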

How the results depend on the processing

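Averaging a gene's probe sets changed the most. Over all lines it called 5 of the 31 genes for GA101 and 6 for rituximab against isotype, 2 for GA101 against rituximab, 1 for isotype against PBS, 3, 6 and 4 for GA101, rituximab and both against PBS, and 1 for both against GA101. Within lines it called 15, 17 and 15 pairs for GA101, rituximab and both against isotype, 3 for GA101 against rituximab, 1 for isotype against PBS, and 11, 11 and 10 against PBS. The F tests then called 8 genes for GA101, 6 for rituximab and 1 for their difference. Over all genes they called 1302, 1017 and 289, where the brightest probe set gave 2020, 1642 and 529. Averaging called 1886 of all genes for GA101 and 2170 for rituximab against isotype, where the brightest probe set gave 2586 and 2938. It called 194 for GA101 against rituximab and 558 for isotype against PBS, where the brightest gave 323 and 935. Against PBS it called 1011 for GA101, 1144 for rituximab and 804 for both, where the brightest gave 1507, 1719 and 1228. For both against GA101 it called 126, where the brightest gave 212. Of all gene and line pairs for isotype against PBS it called 578, where the brightest gave 975. It also turned the sign of 10 changes. With GA101 against isotype these were FYN in Z138 (-0.13), NFATC1 in Z138 (-0.10), CD79B in HBL-2 (-0.19) and CD79B over all lines (-0.0018). The others were SYK with rituximab in HBL-2 (0.0039), NFATC1 in GRANTA-519 (-0.0459) and PRKCB in Z138 (-0.0945) with both, NFATC1 in Z138 for GA101 against rituximab (-0.0022), FYN in HBL-2 for isotype against PBS (-0.0364) and SYK for GA101 against PBS over all lines (0.0201). The cause was not tested. With the replicate number as a block, 14 genes were called for both against PBS (1601 of all genes, 1228 without it), 4 for both against GA101 (293 and 212) and 12 pairs for isotype against PBS (1410 and 975 of all pairs). No label ties the numbers to a culture or day. Same-numbered arrays of a line correlated at -0.08 to 0.16 in their deviations. Of the 15 arrays of a line, 12 to 14 correlated best with their own number in Z138, GRANTA-519, HBL-2 and JEKO-1. In REC-1 it was 7. This is a hint from the data of a shared deviation. Array weights called 13 genes for both against PBS (1315 of all genes), and with no filter the difference between antibodies varied for 4 (426 of 19775 genes). Leaving out each array gave 7 to 11 genes for both against PBS, 1 to 3 for both against GA101, 9 to 17 pairs for GA101 against rituximab, 3 to 6 for isotype against PBS, and 4 to 9 genes in the F test of the difference. Signal near the floor limits CR2 and RASGRP3 in 3 lines each.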
